A study of Danio rerio with 6 samples.

Results

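The genes mmp13a (ENSDARG00000012395) and MMP9 (ENSDARG00000042816) encode a collagenase and a gelatinase of the matrix metalloproteinase family. They are 2 of the 25130 genes counted in this study of larval zebrafish macrophages after muscle injury, were taken by their identifiers, and were present in all 6 libraries. MMP9 is the spelling that the table of gene names gives the zebrafish gene. The larvae were of the TL strain, carried Tg(mpeg1:mCherry), a transgene with the promoter of mpeg1, a gene of macrophages, in front of the red reporter mCherry, and were kept in PTU, which blocks pigment. Live mCherry-positive cells were sorted 1 to a well and sequenced by SORT-seq, which reads the 3′ end of each transcript and counts transcripts by molecular identifiers. The uninjured library came from whole larvae at 4 days post fertilisation (dpf). The injured libraries came from the dissected wound region after a needle puncture of the dorsal trunk muscle at 4 dpf, taken at 1 day post injury (dpi; larvae of 5 dpf, 2 libraries), 2 dpi (6 dpf, 1 library) and 3 dpi (7 dpf, 2 libraries). Uninjured and injured libraries therefore differ in injury, in age and in the tissue taken, which cannot be told apart here.

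Matrix metalloproteinases are zinc-dependent enzymes that cells release as inactive precursors and that other proteases switch on outside the cell. Collagenases such as MMP13 cut intact fibrillar collagen, and gelatinases such as MMP9 degrade the unwound chains and basement membrane collagen. TIMP proteins inhibit both. In mammals neutrophils carry MMP9 in their granules, and macrophages, keratinocytes and fibroblasts can make both enzymes in wounded tissue.

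Each library was a plate of 384 wells, and all plates used the same 384 well numbers. Wells with at least 500 transcripts were kept, 1820 of 2304. Kept wells held 1362264 to 8340837 transcripts per library and 3015 to 10896.5 per well by median. In the uninjured library 18 wells with over 50000 transcripts held 70.1% of all transcripts, and its wells outside the gate held 51057 CPM (transcripts scaled to the total of the wells summed) of 11 skeletal muscle markers, against 25.2 to 145 CPM in the injured libraries. Replicate 1 of 3 dpi held 12847 CPM of 12 keratinocyte markers outside the gate, against 736 to 1751 CPM in the other injured libraries and 9685 CPM in the uninjured one. Whether the replicates were separate batches of larvae is not stated, so the p-values measure the spread between these libraries, which may be technical. Replicates differed by more than sampling noise, with a chi-square of 11.7 (1 dpi) and 19.1 (3 dpi) for each degree of freedom.

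A well was called granulocyte-gated when npsn and EPX together made up at least 0.2% of its transcripts. npsn encodes nephrosin, a metalloprotease of fish granulocytes, and EPX is the table's name for a myeloid peroxidase gene (ENSDARG00000019521). The gate uses neither mmp13a nor MMP9. It took 265 wells and left 1555. Of 8 other identifiers on the granulocyte list, 4 were higher inside the gate in each library, namely scpp8, srgn, nccrp1 and lyz. scpp8 stood at 368 to 1019 CPM inside and 3.25 to 39.4 CPM outside, and srgn, which encodes the granule proteoglycan serglycin, at 1412 to 2062 CPM inside and 126 to 553 CPM outside. cfl1l was higher inside in the injured libraries but not in the uninjured one (346 against 409 CPM), and illr4 was higher inside in 3 of 6 libraries. s100a10b was lower inside in all 6, at 33.2 to 103 CPM against 175 to 557 CPM. The gene named epx in lower case (ENSDARG00000012535) had no transcript in gated wells of any library.

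The gated wells held little of the genes that the sort selected for. mpeg1 stood at 0 to 53.3 CPM in them and at 144 to 605 CPM outside the gate. A transcript of the mCherry transgene was counted in 0% to 8.82% of gated wells and in 10.5% to 41.0% of the others. Of 20 macrophage-marker identifiers, 6 to 12 per library had no transcript in gated wells. Some of these were scarce outside the gate as well, such as c1qc at 0 to 0.856 CPM. Others were not, such as cd74a at 21.7 to 345 CPM. Gated wells were few, so a count of 0 in them does not show absence. The summed macrophage markers in gated wells, 1899 to 4317 CPM, came largely from LCP1 and ctss2.1, an actin-bundling protein of all leukocytes and a cathepsin. How cells with so little mpeg1 entered the sort was not tested.

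Both genes were scarce in the uninjured library and abundant in every injured one. The mmp13a level over all kept wells was 142 CPM in the uninjured library (95% exact Poisson interval 134 to 150, counting error only). It was 1124 and 664 CPM in replicates 1 and 2 of 1 dpi, 1128 CPM at 2 dpi, and 1441 and 1704 CPM at 3 dpi. All 5 injured libraries lay above the uninjured one, both 3 dpi libraries lay above both 1 dpi libraries, and replicate 1 of 1 dpi and the 2 dpi library were nearly level. MMP9 stood at 108 CPM in the uninjured library (101 to 115), at 1055 and 845 CPM at 1 dpi, at 1579 CPM at 2 dpi and at 1831 and 2432 CPM at 3 dpi. Its groups lay in the order of sampling time and did not overlap. How many of all genes showed such orders was not counted, so no result about the 2 genes is read from them. Levels of the 2 genes are not compared with each other.

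Injured minus uninjured, edgeR's quasi-likelihood test over all 13900 tested genes gave mmp13a a log2 difference of 3.01 (standard error, SE, 0.77, adjusted p = 0.00209) and MMP9 one of 3.73 (SE 0.83, adjusted p = 0.000248). Both genes were higher in the injured libraries, where 2.29% of all tested genes were called higher and 14.4% lower. The single uninjured library, whose spread was taken from the replicated groups, carries this comparison. These shares depend on its deepest wells. Without wells over 50000 transcripts, 29 of 13112 tested genes were called higher and 450 lower, where all kept wells gave 319 and 1995 of 13900. The gene lists below were tested only with these wells included. Without them the uninjured mmp13a level was 315 CPM and the MMP9 level 264 CPM, still below each injured library. The mmp13a difference was then 2.03 (adjusted p = 0.115 by edgeR). It was 2.84 (adjusted p = 0.0962) without replicate 1 of 1 dpi, while MMP9 passed the test in all 13 alternatives run.

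Between 1 and 3 dpi neither gene passed the test in the library totals. The log2 difference, 3 dpi minus 1 dpi, was 0.74 for mmp13a (SE 0.56, adjusted p = 0.401) and 1.09 for MMP9 (SE 0.57, adjusted p = 0.212), where 9% of tested genes were called, 5.54% higher and 3.46% lower. Without replicate 1 of 1 dpi the mmp13a value was 1.24, and without replicate 2 of 1 dpi it was 0.38, neither of them called. Approximate intervals of 2 SE around both values include 0 and include more than a doubling. In such a sum, more cells with a transcript and more transcripts per cell cannot be told apart, so the wells were next divided by the gate.

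**Figure D1:**
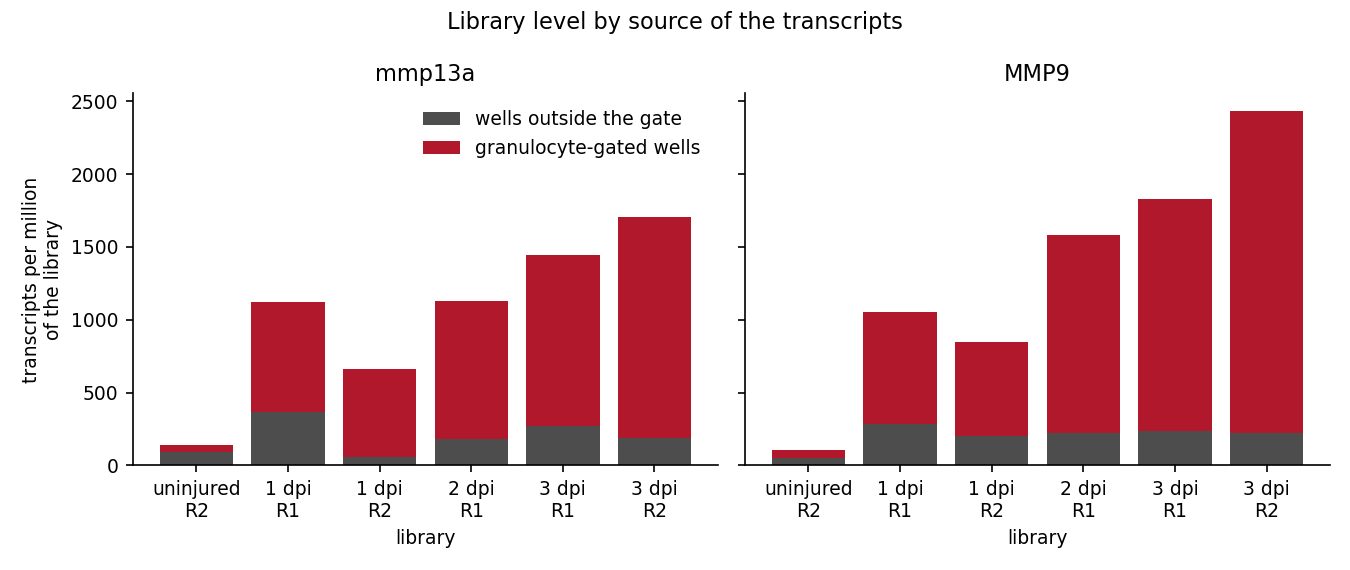
Transcripts of mmp13a (left) and MMP9 (right) (CPM) of each library, divided into those from granulocyte-gated wells (red) and from all other kept wells (grey); the bar's height is the library level. The red part is tallest in the 3 dpi libraries for both genes, whereas the grey part is tallest in replicate 1 of 1 dpi.

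Most transcripts of both genes in the injured libraries came from the minority of gated wells. Gated wells were 5 of 341 in the uninjured library (1.47%), 29 of 299 and 21 of 209 at 1 dpi (9.70% and 10.05%), 68 of 364 at 2 dpi (18.7%) and 56 of 276 and 86 of 331 at 3 dpi (20.3% and 26.0%). They held 3.93% to 19.8% of the transcripts of an injured library. Yet 67.2% to 90.9% of its mmp13a transcripts and 72.9% to 91.0% of its MMP9 transcripts were counted in them. In the uninjured library 5 wells held 34.5% of the mmp13a and 54.99% of the MMP9 transcripts.

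The share of gated wells was higher in both 3 dpi libraries than in both 1 dpi libraries. The means were 9.87% ± 0.25 (SD, n = 2) at 1 dpi and 23.1% ± 4.02 (SD, n = 2) at 3 dpi, a difference of 13.3 percentage points (exact permutation test over libraries, two-sided, p = 0.333, the smallest this design allows). With the gate at 1% of the well total the difference was 2.23 points and the groups overlapped, with 6.69% and 9.09% at 1 dpi against 5.43% and 14.8% at 3 dpi.

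The part of the library level that came from gated wells followed the same order. For mmp13a it was 755 and 604 CPM at 1 dpi, 948 CPM at 2 dpi, and 1173 and 1517 CPM at 3 dpi. For MMP9 it was 769 and 645 CPM, then 1355 CPM, then 1598 and 2213 CPM. How many of all genes showed this order was not counted. The part from all other wells had no such order: for mmp13a it was 369 and 60.2 CPM at 1 dpi, 180 CPM at 2 dpi and 269 and 187 CPM at 3 dpi, and for MMP9 it lay between 200 and 286 CPM in all 5 injured libraries. In the uninjured library gated wells gave 48.8 and 59.5 CPM of mmp13a and MMP9, and the other wells 92.8 and 48.7 CPM.

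Within a library, gated wells held far more of either gene per transcript than the other wells. The mmp13a level in gated wells was 10846 CPM in the uninjured library, 11399 and 15350 CPM at 1 dpi, 7647 CPM at 2 dpi and 8451 and 7648 CPM at 3 dpi. Outside the gate it was 93.2 CPM, then 395 and 62.7 CPM, 205 CPM, and 312 and 234 CPM. The lowest gated level lay far above the highest level outside. MMP9 stood at 13218, 11599, 16395, 10931, 11518 and 11159 CPM in gated wells of the same 6 libraries in that order, and at 48.9, 307, 209, 255, 270 and 273 CPM outside them.

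With the library as a block and both sums of a library compared, mmp13a was higher in gated wells by 5.49 on the log2 scale (SE 0.60, adjusted p = 0.00132) and MMP9 by 5.72 (SE 0.22, adjusted p = 1.47e-27; edgeR, 5861 genes). Both differences had the same direction in 6 of 6 libraries. Gated and other wells differed widely in general, and of the tested genes 35.8% were called, 11.1% higher and 24.7% lower in gated wells. Both genes stayed called in all 15 alternatives, with log2 differences of 3.93 to 5.71 for mmp13a and 4.14 to 6.02 for MMP9. Their adjusted p by edgeR ran from 9.10e-111 to 0.0138 for mmp13a and from 6.47e-265 to 0.00592 for MMP9. The size of these p-values is therefore not read. The lowest values came with the gate at 1%, which leaves wells with less npsn and EPX among the others. That fit also lacked the uninjured library, which then had 2 gated wells where at least 5 were required.

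**Figure D2:**
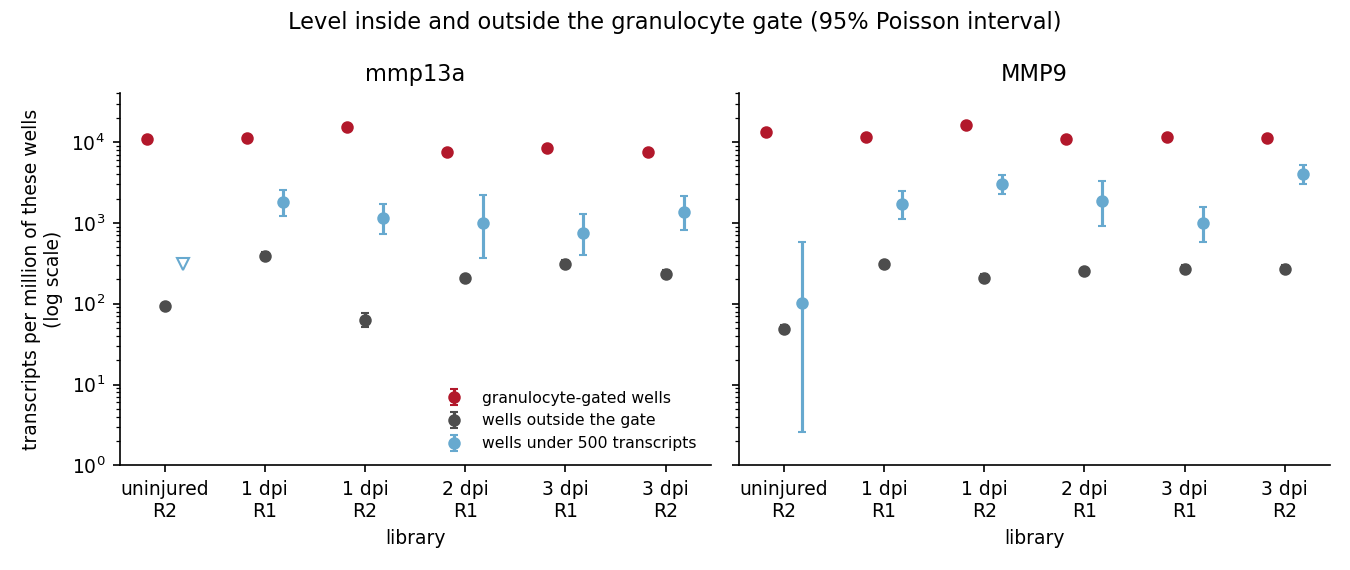
Level of mmp13a (left) and MMP9 (right) in CPM, on a log scale, by library in granulocyte-gated wells (red), in kept wells outside the gate (grey) and in wells under 500 transcripts (blue). Bars are 95% exact Poisson intervals, and the open triangle is the limit that a count of 0 allows (310 CPM); gated wells stand between 7647 and 16395 CPM in every library and the blue points of the injured libraries stand between the red and the grey.

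Inside the gate nearly every well held both genes, at about 1% of its transcripts. Both were counted in 251 of the 265 gated wells, only mmp13a in 1, only MMP9 in 9 and neither in 4. The share of wells with mmp13a was 100% in the uninjured and 1 dpi libraries, 94.1% at 2 dpi, then 94.6% and 93.0% at 3 dpi. The corresponding shares for MMP9 were 100%, 100% and 100%, then 98.5%, then 100% and 95.3%. The 4 gated wells with neither gene belonged to the 2 dpi library (1 well) and replicate 2 of 3 dpi (3 wells).

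The median gated well gave 0.991% and 1.42% of its transcripts to mmp13a at 1 dpi, 0.708% at 2 dpi, then 0.884% and 0.611% at 3 dpi. For MMP9 the medians were 1.22% and 1.66%, then 1.03%, then 1.06% and 0.954%. The 3 dpi medians of both genes lay below both 1 dpi medians, but how many of all genes had such an order was not counted. The spread among wells was wide: the highest gated well reached 5.23% mmp13a and 4.74% MMP9, both in replicate 2 of 1 dpi. The 5 gated wells of the uninjured library, with medians of 0.787% and 1.15%, fell within the range of the injured ones.

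The level inside the gate did not pass the test between times. The log2 difference, 3 dpi minus 1 dpi, was -0.55 for mmp13a (SE 0.33, adjusted p = 0.568) and -0.12 for MMP9 (SE 0.33, adjusted p = 0.961) by edgeR over 3008 genes, 0.266% of which were called, 0.166% higher and 0.0997% lower. For both genes the 2 libraries of 3 dpi lay below the 2 of 1 dpi, but how many of all genes did so was not counted. Median totals of gated wells were 2050 and 3164 transcripts at 1 dpi and 3029 and 3159.5 at 3 dpi.

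In summed counts, the balance of the 2 genes within gated wells was lower for mmp13a at the later times. mmp13a made up 49.6% and 48.4% of the summed mmp13a and MMP9 transcripts of gated wells at 1 dpi, 41.2% at 2 dpi, then 42.3% and 40.7% at 3 dpi. In these sums the 3 later libraries lay below both 1 dpi libraries, and the uninjured library stood between at 45.1%. Well by well only part of that order was kept: both 3 dpi libraries lay below both 1 dpi libraries, but the 2 dpi library did not. The median share of a well was 47.6% and 43.0% at 1 dpi and 43.3% at 2 dpi. It was 42.5% and 40% at 3 dpi, and lowest in the uninjured library at 38.3%. Quartiles overlapped, at 33.9% to 63.7% in replicate 2 of 1 dpi and 32.2% to 52.1% in replicate 1 of 3 dpi. In the sums the difference was -7.47 percentage points (pooled SD 1.03, n = 2 against 2). The exact permutation test over libraries gave p = 0.333, the smallest this design allows. This ratio was chosen after the values were seen. Its difference was -8.29 to -6.47 points with the gate at 0.1% or 1% and without each of the 4 libraries.

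**Figure D3:**
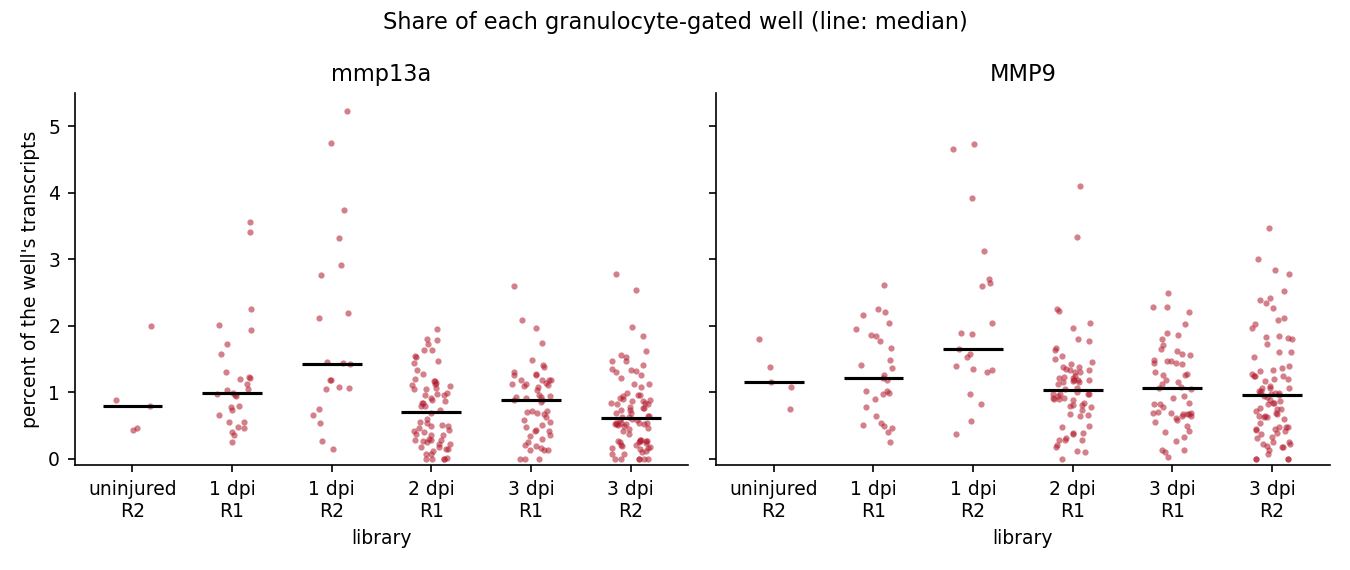
Percent of a well's transcripts that were mmp13a (left) or MMP9 (right) in each granulocyte-gated well, by library; each point is a well and the line is the median of the library. Medians run from 0.611% to 1.42% for mmp13a and from 0.954% to 1.66% for MMP9, with the highest wells in replicate 2 of 1 dpi.

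Outside the gate both genes were detected in fewer wells, often as a single transcript, and nearly empty wells had them as well. mmp13a was counted in 20.8% of the uninjured wells outside the gate, in 35.6% and 18.1% at 1 dpi, in 41.2% at 2 dpi, and in 27.7% and 31.4% at 3 dpi. Wells under 500 transcripts were not kept and are called nearly empty here, although whether they held a cell was not tested. In them the shares were 0% (0 of 43 wells, which allows up to 6.98%), 14.1% and 7.43%, 25%, and 8.33% and 32.1%. The kept wells lay above the nearly empty ones in all libraries but replicate 2 of 3 dpi. There the mmp13a share is not read as expression, although the mean per well was higher in kept wells (1.11 against 0.36 transcripts).

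MMP9 was counted in 14.6% of the uninjured wells outside the gate, in 42.2% and 30.9% at 1 dpi, in 48.3% at 2 dpi, and in 37.3% and 55.1% at 3 dpi. Nearly empty wells gave 2.33%, then 16.5% and 17.1%, 40%, and 12.96% and 62.3%. In replicate 2 of 3 dpi the share in kept wells was not above that in nearly empty ones and is likewise not read as expression; the 95% exact binomial intervals overlapped (48.6% to 61.4% and 47.9% to 75.2%), and the means per well were 1.30 and 1.06 transcripts. Intervals also overlapped for MMP9 in the uninjured library and for both genes at 2 dpi, where only 20 wells were nearly empty. At 2 dpi they were 42.5% to 54.2% and 19.1% to 63.9% for MMP9, and 35.6% to 47.1% and 8.66% to 49.1% for mmp13a. Median totals of nearly empty wells were 99 to 285.5 transcripts, and those of kept wells outside the gate 3098 to 11874. At depths so unlike, a higher share in kept wells is not by itself read as expression.

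Per transcript counted, the nearly empty wells of every injured library held more of both genes than the kept wells outside the gate. They stood at 761 to 1817 CPM of mmp13a and 996 to 4028 CPM of MMP9. Per well they held less: 0.12 to 0.36 mmp13a and 0.16 to 1.06 MMP9 transcripts on average, against 0.55 to 2.72 and 1.30 to 3.37 in kept wells outside the gate. The part of free transcripts in the values outside the gate was not tested.

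A further reference came from wells outside the gate in which 5 marker genes of metaphocytes, mpeg1-positive cells with epithelial genes, made up at least 0.2% of transcripts. These metaphocyte-marker wells of the injured libraries, 62 in number, had mmp13a in 29.0% and MMP9 in 40.3%, at a median of 3363.5 transcripts. The other 1157 wells outside the gate had them in 32.2% and 43.8%, at a median of 5687 transcripts. The shares lay close together, although the mean per well was lower in the metaphocyte-marker wells, at 0.468 against 1.76 transcripts of mmp13a and 0.839 against 2.01 of MMP9. Of the 62 wells 22 and 28 came from the 3 dpi libraries. In the uninjured library 0 of 14 such wells had mmp13a, which allows a share of up to 21.4%, and 2 of 14 had MMP9. Whether metaphocytes make these transcripts themselves was not tested.

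**Figure D4:**
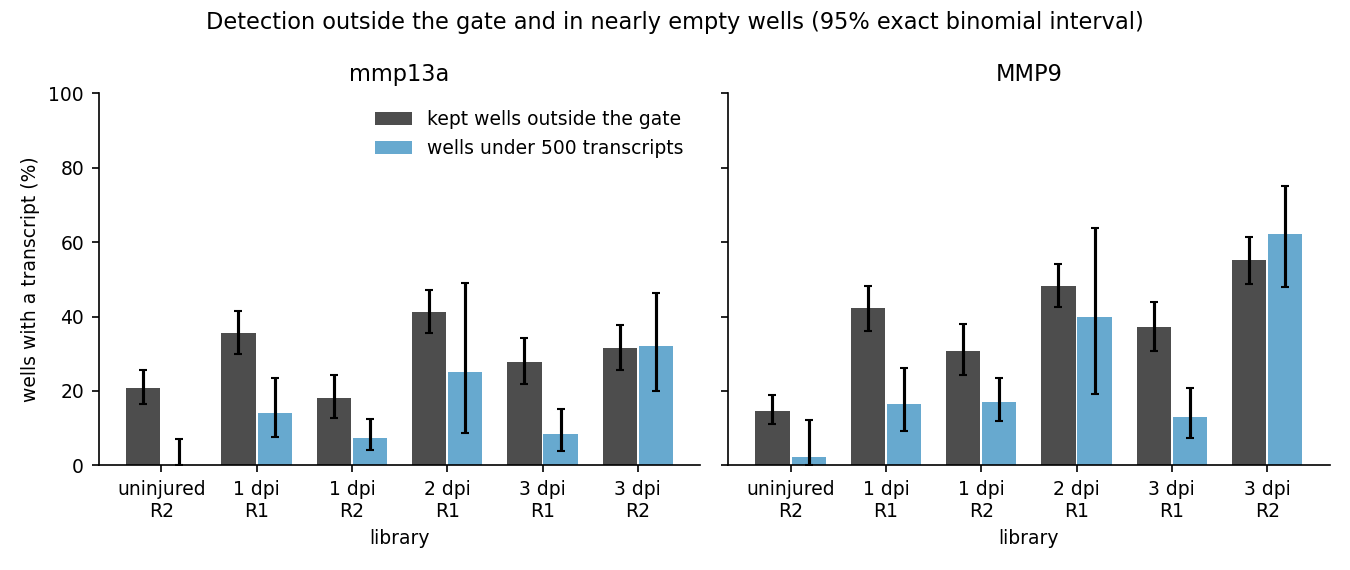
Percent of wells with at least 1 transcript of mmp13a (left) or MMP9 (right) by library, in kept wells outside the granulocyte gate (grey) and in wells under 500 transcripts (blue), with 95% exact binomial intervals; for 0 of 43 wells the bar gives the limit of 6.98%. In replicate 2 of 3 dpi the blue bar is as tall as the grey one for mmp13a (32.1% against 31.4%) and taller for MMP9 (62.3% against 55.1%).

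At equal depth the share of wells with either gene outside the gate did not differ between times beyond the spread of replicates. In wells thinned to 1000 transcripts, mmp13a was present in 16.5% and 3.35% at 1 dpi, 12.2% at 2 dpi, then 14.6% and 13.8% at 3 dpi, and in 7.61% of uninjured wells. The replicates of 1 dpi differed from each other by more than any library of 3 dpi differed from replicate 1. The difference was 4.3 points (exact permutation test, two-sided, p = 1.00, smallest possible 0.333). MMP9 was present in 18.5% and 13.4%, then 11.8%, then 13.1% and 21.9%, and in 3.46% of uninjured wells, with a difference of 1.51 points between 3 and 1 dpi (exact permutation test, p = 1.00, also after adjustment over both genes). Thinning left out 8 to 47 wells per library outside the gate.

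Outside the gate the summed level of MMP9, but not of mmp13a, passed the test of injured against uninjured libraries. The log2 difference was 2.40 for MMP9 (SE 0.68, adjusted p = 0.00634) and 1.33 for mmp13a (SE 0.75, adjusted p = 0.302), by edgeR over 13792 genes of which 1.64% were called higher and 13.1% lower. The difference between the 2 genes was not tested. With the gate at 1%, mmp13a passed as well (log2 2.19, adjusted p = 0.0329). The mmp13a level of replicate 2 of 1 dpi, 62.7 CPM, lay below the uninjured level of 93.2 CPM, whereas MMP9 was higher in all 5 injured libraries. Without wells over 50000 transcripts the uninjured level outside the gate was 154 CPM for mmp13a and 66.3 CPM for MMP9. The log2 differences were then 0.78 (SE 0.81) for mmp13a and 2.12 (SE 0.64) for MMP9. MMP9 was no longer called without replicate 1 of 1 dpi (log2 2.28, adjusted p = 0.133) or without replicate 2 (2.51, adjusted p = 0.0602).

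Between 1 and 3 dpi the levels outside the gate gave log2 differences of 0.22 for mmp13a (SE 0.62, adjusted p = 0.851) and 0.03 for MMP9 (SE 0.52, adjusted p = 0.983), with 8.54% of genes called, 5.89% higher and 2.65% lower. The mmp13a value rests on a pair of 1 dpi libraries that lie far apart, at 395 and 62.7 CPM. With the gate at 1% the differences were 1.27 for mmp13a (adjusted p = 0.148) and 1.64 for MMP9 (adjusted p = 0.0568). In wells thinned to 1000 transcripts the mmp13a difference was 1.26 (adjusted p = 0.0331 by edgeR). Single libraries were left out only of the unthinned sums. There the mmp13a difference was 2.19 without replicate 1 of 1 dpi and -0.57 without replicate 2 of 1 dpi. It was -0.29 without replicate 1 of 3 dpi and 0.63 without replicate 2 of 3 dpi.

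A few wells held much of what was counted outside the gate. The 5 richest wells of a library held 46.3% to 52.9% of its mmp13a transcripts outside the gate and 26.3% to 72.7% of its MMP9 transcripts. At least 10 transcripts, a limit chosen after the values were seen, were reached by mmp13a in 60 of the 1555 wells and by MMP9 in 43, but by both in only 13. Of the 60 mmp13a-rich wells 32 had at most 1 MMP9 transcript, and of the 43 MMP9-rich wells 18 had at most 1 mmp13a transcript. Inside the gate 202 of 265 wells reached that limit for both genes. No mmp13a-rich gated well had so little MMP9, whereas 5 of 231 MMP9-rich gated wells had at most 1 mmp13a transcript.

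The rich wells outside the gate spread over all libraries, with 19 of the 60 mmp13a-rich wells in the uninjured library and 18 at 2 dpi, and 13 of the 43 MMP9-rich wells at 2 dpi and 9 in replicate 2 of 1 dpi. At least 1 transcript of the macrophage-marker list, which includes LCP1, was present in 59 of the 60 and in 42 of the 43. That list summed to 2477 to 9123 CPM outside the gate, so a deep well is likely to hold 1. Its presence therefore does not tell the cell type. At least 1% of keratinocyte, muscle or fibroblast markers was present in 12 of the 60, 10 of them in the uninjured library, and in 5 of the 43. Neither share is given for all wells outside the gate. Their median totals were 13974.5 and 11856 transcripts, so a limit in transcripts favours deep wells. At 0.1% or more of a well's transcripts, 98 wells outside the gate were rich in mmp13a, 103 in MMP9 and 26 in both, against 247, 257 and 245 of the gated wells.

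Wells near the gate's threshold, pooled over libraries, were intermediate in the median share of their transcripts. Replicate 2 of 3 dpi gave 18 of the 41 wells just below the threshold and 11 of the 18 just above it. In that library MMP9 was present in 55.1% of all wells outside the gate. In 41 wells where npsn and EPX made up 0.1% to under 0.2%, MMP9 was present in 58.5% and its median was 0.105% of the well. In 18 wells at 0.2% to under 0.4% it was present in 72.2% with a median of 0.195%. mmp13a was present in 56.1% and 55.6% of these wells, with medians of 0.0544% and 0.137%. Their median totals were 1288 and 1095 transcripts, so a few counts of the gate genes decide the side on which such a well falls.

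**Figure D5:**
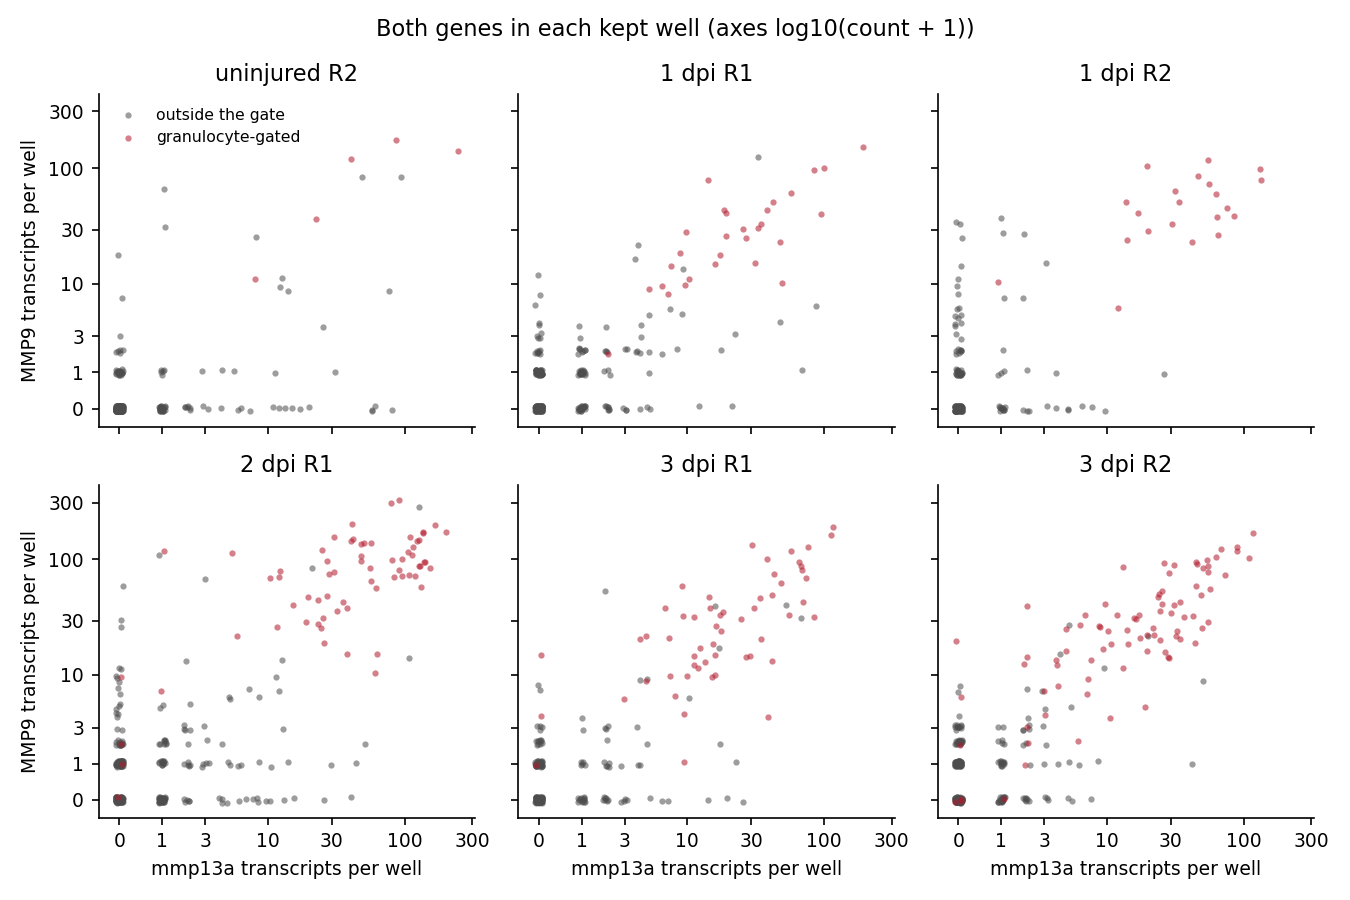
Transcripts of mmp13a (horizontal) and MMP9 (vertical) in each kept well of the 6 libraries, as log10(count + 1) with a small random shift so that points do not hide each other; red wells are granulocyte-gated and grey wells are not. Red wells lie along the diagonal with both genes, and grey wells lie mostly near 0, with some rich in 1 gene along either axis.

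Across all wells the counts of the 2 genes went together, and within either compartment they did so less. The following correlations describe wells of 1 plate that share a library, after thinning to 1000 transcripts and on log(count + 1). Whether these wells also share free transcripts was not tested. Over all wells Pearson's r was 0.56 in uninjured larvae, 0.76 and 0.86 at 1 dpi, 0.80 at 2 dpi, then 0.84 and 0.83 at 3 dpi (196 to 352 wells). Inside the gate it was 0.18 and 0.41 at 1 dpi (23 and 17 wells), 0.34 at 2 dpi (64 wells), and 0.43 and 0.56 at 3 dpi (52 and 76 wells). The corresponding Spearman values were 0.28, 0.36, 0.36, 0.35 and 0.51. Pearson's r inside the gate depended on the setting. In the same order it was 0.49, 0.41, 0.52, 0.45 and 0.69 without thinning. With the gate at 0.1% it was 0.59, 0.66, 0.47, 0.61 and 0.67, and with the gate at 1% 0.27, 0.45, 0.29, 0.46 and 0.28.

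Outside the gate r was -0.05 in uninjured larvae, 0.12 and -0.07 at 1 dpi, 0.17 at 2 dpi, then 0.52 and 0.33 at 3 dpi (179 to 289 wells). The Spearman values there were lower at 3 dpi, 0.26 and 0.17, and 0.01 at 2 dpi. The 2 libraries of 3 dpi thus had the highest values outside the gate. With the gate at 0.1%, replicate 2 of 3 dpi fell to 0.17 while replicate 1 was at 0.47. Without thinning the values were 0.27, 0.01, 0.17, 0.35 and 0.22 from 1 to 3 dpi. With the gate at 1%, which leaves wells with less npsn and EPX outside, they were 0.47, 0.49, 0.72, 0.81 and 0.73. In counts this sparse a weak correlation is no finding.

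Co-detection at equal depth was likewise uneven among libraries outside the gate. After thinning, 11 of the 40 mmp13a wells in replicate 1 of 1 dpi also held MMP9 (27.5%), against 16.7% of wells without mmp13a. In replicate 2 of 1 dpi none of 6 did, against 13.9%, and at 2 dpi 4 of 35 did (11.4%), against 11.9%. At 3 dpi 9 of 29 (31.0%) and 11 of 31 (35.5%) did, against 10% and 19.7%. In the uninjured library none of 22 did.

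The genes whose counts over wells were most like both members were the gate genes and each other. Likeness is the mean Pearson's r over the 5 injured libraries, among 2061 other genes. For mmp13a it was highest with MMP9 (0.82), EPX (0.81) and npsn (0.81), followed by ENSDARG00000041524 (0.63), which has no symbol, si:dkey-238c7.12 (0.54), LTA4H (0.54), cfbl (0.53) and ppdpfa (0.52). For MMP9 the order was npsn (0.84), EPX (0.84), mmp13a (0.82), ENSDARG00000041524 (0.61), LTA4H (0.56), si:dkey-238c7.12 (0.55), cfbl (0.53) and scinlb (0.52). LTA4H encodes leukotriene A4 hydrolase, which makes a lipid that attracts neutrophils. A clear gap separates the first 3 genes of both lists from the rest.

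Outside the gate no gene came close to these values. Among 2069 genes the highest for mmp13a were MMP9 (0.22), ENSDARG00000031153 (0.16), tnfb (0.14), nfil3-6 (0.14) and anpepla (0.12). For MMP9 they were mmp13a (0.22), EPX (0.18), anpepla (0.16), scinlb (0.16) and si:ch211-284o19.8 (0.14).

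Among the other metalloproteinases mmp25b was also called higher in gated wells and in injured libraries. mmp25b belongs to the membrane-bound group and stood at 127 to 341 CPM in gated wells and 8.43 to 46.8 CPM outside. Of 29 listed metalloproteinase symbols, 20 identifiers were found, 6 of which could be tested between gated and other wells. Higher in gated wells were 3 of the 6: both members and mmp25b (log2 2.96, SE 0.30, edgeR adjusted p = 5.61e-21). Lower was 1, MMP14 (ENSDARG00000008388; log2 -3.84, SE 0.58), a membrane-bound collagenase, at 0 to 10.2 CPM in gated wells and 31.8 to 100.0 CPM outside. The list's median log2 difference was 1.66, against -0.39 over all genes tested. Of those, 11.1% were higher and 24.7% lower in gated wells.

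In the library totals, 12 metalloproteinases were tested. Injured minus uninjured, 3 rose, namely both members and mmp25b (log2 2.46, SE 0.69, adjusted p = 0.00551 by edgeR), and 2 fell, MMP2 (-2.06, SE 0.68), a gelatinase of connective tissue, and mmp30 (-3.72, SE 0.97). The list's median was 0.41 and that of all genes -0.16, with 2.29% of all tested genes called higher and 14.4% lower. Between 1 and 3 dpi MMP28 rose (log2 2.05, SE 0.66, adjusted p = 0.0370). It stood at 6.61 and 16.2 CPM at 1 dpi and at 14.8 and 93.99 CPM at 3 dpi, so the groups overlap. mmp30 was called too, with no transcript at 1 dpi and 41.7 and 8.92 CPM at 3 dpi, which is at least 26.1-fold higher against a floor of 3 counts over the 1 dpi group. The median of the list was 1.63 with or without that gene at its bound, against 0.28 for all genes. Of all tested genes 5.54% rose and 3.46% fell. Inside the gate 3 metalloproteinases were tested between times, with a median of -0.46 against 0.06 for all genes.

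Genes that inhibit the enzymes were few in the table. Of 9 listed symbols 4 identifiers were found and 2 were tested in the totals, both carrying the symbol TIMP2. One of them (ENSDARG00000075261) was higher in gated wells (log2 1.16, SE 0.20), at 453 to 1545 CPM inside and 126 to 476 CPM outside. Between 1 and 3 dpi neither was called in the totals, where 9% of all tested genes were. The other (ENSDARG00000061226) fell in injured libraries (log2 -3.21, SE 0.79, adjusted p = 0.00122 by edgeR), from 28.4 CPM in the uninjured library to 0.579 to 11.3 CPM. The list's median was -0.79 in that comparison, where 14.4% of all tested genes were called lower.

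The plasminogen system and furin supply proteases that can activate metalloproteinase precursors. Of 6 tested genes 3 were higher in gated wells: SERPINE2 (log2 1.90, SE 0.28), a protease inhibitor, FURIN (ENSDARG00000062909; 1.42, SE 0.30), a convertase, and plaua (0.64, SE 0.23), a urokinase-type plasminogen activator. Among the lower genes were ANXA2 (-2.36, SE 0.25) and s100a10b (-2.18, SE 0.27), which form a plasminogen receptor. The list's median was -0.77, and over all tested genes 11.1% were higher and 24.7% lower. plaua also rose in injured libraries (log2 2.46, SE 0.66, adjusted p = 0.00345 by edgeR), as 1 of 13 tested genes that did, with 1 lower, anxa2b. From 1 to 3 dpi ANXA2 (-2.23, SE 0.56) and s100a10b (-1.60, SE 0.52) fell and PLG (2.63, SE 0.73), plasminogen itself, rose. Over all tested genes 2.29% were higher and 14.4% lower in injured libraries, and 5.54% rose and 3.46% fell from 1 to 3 dpi.

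Among ADAM proteases, 3 of 10 tested genes were higher and 2 lower in gated wells, where 11.1% of all tested genes were higher and 24.7% lower. The higher ones were adam19b (log2 4.38, SE 0.42), adam8b (1.65, SE 0.46) and adam8a (2.84, SE 0.79, adjusted p = 0.0410 by edgeR), and the lower ones ADAM9 and ADAM15. The median was -0.13. Outside the gate adam8a fell from 112 and 121 CPM at 1 dpi to 6.57 and 15.4 CPM at 3 dpi (log2 -3.50, SE 0.61), while inside it stood at 388 and 118 CPM and then 341 and 294 CPM. Whether the change in adam8a differs between the compartments was not tested.

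The list of collagens holds substrates of both enzymes. Of 16 tested, 13 fell in injured against uninjured libraries and none rose (median log2 -5.08). Over all tested genes 14.4% fell and 2.29% rose. From 1 to 3 dpi 7 collagens rose and 9 did not pass the test, where 5.54% of all tested genes rose and 3.46% fell. Their median was 4.02, or 3.40 with 2 genes that had no transcript at 1 dpi at their bound. COL1A2, a chain of fibrillar collagen, stood at 892 CPM in the uninjured library, at 5.87 and 1.16 CPM at 1 dpi, 55.8 CPM at 2 dpi, and 172 and 63.1 CPM at 3 dpi. Summed fibroblast markers outside the gate stood at 4750 CPM in the uninjured library, 59.0 and 32.5 CPM at 1 dpi, 288 CPM at 2 dpi, and 1216 and 420 CPM at 3 dpi, but 6 of these 12 markers are themselves collagens. The other 6 summed to 918 CPM in the uninjured library, to 7.08 and 4.82 CPM at 1 dpi, to 59.6 CPM at 2 dpi, and to 235 and 112 CPM at 3 dpi. Their part in the collagen values was not tested. In gated wells 4 of 5 tested collagens were lower, against 24.7% of all tested genes.

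Genes of collagen uptake and lysosomal breakdown lay mostly on the other side of the gate. Of 11 tested, 8 were lower in gated wells, among them the lysosomal proteases ctsla (log2 -4.02, SE 0.24) and CTSK (-3.03, SE 0.28) and the receptor gene mrc1b (-4.49, SE 0.35). Only ctss1 was higher (5.85, SE 0.43), at 96.8 to 293 CPM inside and 0.603 to 4.34 CPM outside. The list's median was -2.89, and over all tested genes 11.1% were higher and 24.7% lower in gated wells. CTSK, which encodes the collagen-degrading cathepsin K, rose in injured libraries (2.82, SE 0.75) and fell from 971 and 1808 CPM at 1 dpi to 126 and 87.8 CPM at 3 dpi (log2 -3.69, SE 0.61).

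Cytokine genes that can induce both enzymes included a pair of tumour necrosis factor genes with unlike patterns. tnfb was higher in gated wells (log2 1.81, SE 0.19) and in injured libraries (3.71, SE 0.81), where it stood at 1048 to 1979 CPM against 97.6 CPM in the uninjured one. tnfa had no transcript in gated wells of 5 libraries and 9.03 CPM at 2 dpi, and in the totals it fell from 106 and 73.5 CPM at 1 dpi to 17.0 and 2.06 CPM at 3 dpi (log2 -3.18, SE 0.69). Of 6 tested inducers 3 were higher in injured libraries, tnfa, tnfb and tgfb1b, against 2.29% of all tested genes, and the median was 1.22. In gated wells 2 of 4 were higher, tnfb and tgfb1b, against 11.1% of all tested genes.

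A further list held AP-1, NF-kB, STAT3 and C/EBP factors, which act on metalloproteinase promoters, and regulators of these pathways. Of 19 tested, 4 were higher in gated wells, namely the transcription factors ATF3 and CEBPB, the NF-kB inhibitor nfkbiab (log2 1.34, SE 0.17) and SOCS3 (ENSDARG00000026611), an inhibitor of cytokine signalling, and 6 were lower, namely FOSB (-2.48, SE 0.25), FOSL1, JUND, JUN, JUNB and CEBPA. The shares over all tested genes were 11.1% higher and 24.7% lower, and the median of the list was -0.10. In the totals 5 of 21 were higher and 2 lower in injured libraries, where 2.29% of all tested genes were higher and 14.4% lower. From 1 to 3 dpi 2 rose and 1 fell, where 5.54% of all tested genes rose and 3.46% fell. The comparisons between libraries share the uninjured library or the 1 and 3 dpi libraries, so their counts are not independent of each other.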

How the data were processed

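Expression was measured in single mCherry-positive cells of 6 libraries (1 uninjured, 2 at 1 dpi, 1 at 2 dpi, 2 at 3 dpi). The authors deposited expected counts, that is estimated transcript numbers for each gene in each well. Per the submitters' processing notes, BWA and the Zv9 build were used, and which counter was run is not given in the sources used here. Values were rounded to whole numbers. Spike-ins (1.19% to 16.1% of a library) and the transgene row were left out of totals. Symbols were matched for 19001 of 25130 identifiers (75.6%). No doublet caller was run, since each well received a sorted event; wells over 50000 transcripts were left out as an alternative.

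Wells with at least 500 transcripts were summed per library and tested with edgeR 4.0.16 in R 4.3.3 (TMM, filterByExpr, robust quasi-likelihood fits, Benjamini-Hochberg adjustment over all tested genes, calls under 0.05). DESeq2 1.42.0 was an alternative, run by the same contrasts. Fits over libraries had 2 residual degrees of freedom; gated wells were set against other wells in a fit with a term per library (5 degrees of freedom), without npsn and EPX among the tested genes. Shares were compared over libraries by exact permutation tests in scipy 1.17.1. Thinning drew 1000 transcripts per well without replacement. Intervals (95%, exact Poisson or exact binomial) and the floor of 3 counts cover counting error only. The fitting code was run on simulated data. Its error rate at the spread of these libraries was not tested.

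Genes named are the 2 members, the 8 genes most like each over all wells and 5 outside the gate, and genes of the lists called in a comparison, with examples. Members and lists were chosen with earlier results of these data known. Symbols of lists were matched without regard to case, otherwise without a final a or b, so 1 symbol can stand for several identifiers.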

Additional observations from a re-analysis of the deposited data

Results flagged for a closer look

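Wells under 500 transcripts were left out of every test and served only as a reference for kept wells. In the injured libraries they held both genes above the level of the same wells in the uninjured library. That level was 0 CPM for mmp13a (a count of 0 allows 310 CPM) and 103 CPM for MMP9. For mmp13a the levels were 1817 CPM (30 transcripts) and 1137 CPM (23) in replicates 1 and 2 of 1 dpi, 1011 CPM (6) at 2 dpi, and 761 CPM (13) and 1367 CPM (19) in replicates 1 and 2 of 3 dpi. For MMP9 they were 1696 CPM (28 transcripts) and 3015 CPM (61) at 1 dpi, 1854 CPM (11) at 2 dpi, and 996 CPM (17) and 4028 CPM (56) at 3 dpi. These values rest on 6 to 61 transcripts each. Whether these wells held a poorly recovered cell or none was not tested.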

How the results depend on the processing

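No call on the level of a member inside against outside the gate, or on MMP9 in the library totals, changed under any alternative. Of the other values that crossed the threshold or changed sign, mmp13a in the totals, injured minus uninjured, was 2.03 on the log2 scale without wells over 50000 transcripts, and 2.84 to 3.23 with single libraries left out. Outside the gate the same contrast gave mmp13a 2.19 with the gate at 1% (adjusted p = 0.0329 by edgeR) and -0.052 with a replicate block, and 0.68 to 1.61 with single libraries left out; MMP9 was at 2.28 to 2.51. For 3 dpi minus 1 dpi outside the gate, mmp13a was 1.26 in thinned wells and -0.57 to 2.19 with single libraries left out, and MMP9 -0.015 with no filter on low counts and -0.25 to 0.42; with the gate at 1% they were 1.27 and 1.64. Inside the gate mmp13a was -0.53 with the replicate block (adjusted p = 0.0204), and MMP9 0.022 with no filter, 0.033 with the gate at 1%, and -0.38 to 0.12. The cause was not tested. The share of gated wells differed by 17.1 points with the gate at 0.1% and 2.23 at 1%, and by 10.4 to 16.1 points with single libraries left out. The thinned share outside the gate differed by 12.8 (mmp13a) and 10.3 points (MMP9) with the gate at 1%, which moves wells with less npsn and EPX outside, and by 9.65 points for MMP9 unthinned; single libraries left out gave -2.25 to 10.9 and -2.90 to 5.91. No label ties libraries of the same number together, so they were not treated as pairs; over 13900 genes their deviations correlated at 0.24, which is 1 value for both pairs. With the replicate block the genes called went from 1251 to 1964 (totals, 3 minus 1 dpi), 2314 to 1698 (injured minus uninjured), 1178 to 1672 and 2027 to 1346 (outside), and 8 to 104 (inside the gate). Counts of calls depend on single libraries, from 19 to 3850 in the totals between 3 and 1 dpi and from 3 to 3977 outside. In fits of the 4 libraries of 1 and 3 dpi alone edgeR called 0 genes, with 2555, 2246 and 196 at an unadjusted p under 0.05 in totals, outside and inside, where DESeq2 in all libraries called 564, 528 and 1. Outside the gate the counts were low: the median count per well in each library was 0 for mmp13a and 0 or 1 for MMP9. How far depth limits these values was not tested.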
